A study of Homo sapiens with 12 samples.

Results

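Keratins are the intermediate filament proteins of epithelial cells. Type I (acidic) and type II (basic) chains pair with each other, and the pair that a cell makes depends on the epithelium: simple, stratified, hair shaft or inner root sheath. Keratin-associated proteins are small proteins, rich in cysteine or in glycine and tyrosine, that cross-link keratin filaments in hair. Trimethylation of histone H3 at lysine 27 (H3K27me3) is laid down by the polycomb repressive complex 2 (PRC2) and is found on genes that a cell lineage keeps silent, often as domains that cover several neighbouring genes.

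The family was taken as all protein-coding genes of the GENCODE annotation named KRT or KRTAP with a number, which gave 149 of 20033 protein-coding genes, 55 KRT and 94 KRTAP. H3K27me3 was mapped by ChIP-seq in SH-SY5Y cells, a human neuroblastoma line of neuron-like character. There were 3 groups of 2 replicates each: WT cells, and the lines 231K and 232P, in which MAPT, the gene of the microtubule-binding protein Tau, is knocked out (Tau-KO). The labels name no treatment for any group. The study describes the replicates as biological duplicates. Whether each line is a single clone is not given in the sources used here. The input libraries were not analysed here. A gene was called marked when a peak overlapped, by at least 1 bp, its annotated body or lay within 1 kb of an annotated start of one of its transcripts; this window was also used for the covered share, which is the percentage of the window that lies inside peaks.

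The 6 peak lists differ in estimated depth, in peak width and in the sequence they cover, and this bears on every comparison that follows. Median peak width in replicates 1 and 2 was 441 and 682 bp in WT, 440 and 688 bp in 231K, and 335 and 666 bp in 232P. In each group the replicate 1 list thus held the narrower peaks. WT replicates 1 and 2 held 285826 and 222191 peaks, 231K held 271413 and 212347, and 232P held 147118 and 199677. The peaks covered 213.6 and 282.6 Mb of the genome in WT, 196.6 and 290.2 Mb in 231K, and 70.3 and 211.7 Mb in 232P. Depth relative to WT replicate 1 was estimated from the lowest background in each list and the smallest peak width. It was 66.6% in WT replicate 2, 94.8% and 68.7% in 231K, and 68.1% and 56.9% in 232P. Without read counts, this estimate could not be checked against the sequencing depth of the ChIP libraries. The list of 232P replicate 1 stands apart, with the fewest peaks and the least covered sequence, although its depth by this measure was close to that of WT replicate 2 and 231K replicate 2; it was below that of WT and 231K replicate 1. Inside both 232P files the peaks carry names that begin with 231P, which the study uses for another of its Tau-KO lines. The sample labels were followed, and which line gave these lists was not settled here, so this doubt applies to every 232P value.

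Most keratin family genes overlapped a H3K27me3 peak of the deposited lists in neuroblastoma cells. In WT replicates 1 and 2, 118 and 112 of the 149 genes were marked (79.2% and 75.2%). In 231K the counts were 113 and 121, and in 232P they were 93 and 101 (62.4% and 67.8%). Over all 20033 protein-coding genes the marked share was 23.0% and 22.8% in WT, 21.6% and 22.8% in 231K, and 19.3% and 20.8% in 232P, so that the family lay above all genes in each of the 6 samples. In all 6 samples, 83 family members (55.7%) were marked, against 3300 of all genes (16.5%). These shares depend on the peaks used: with peaks of -log10 q of at least 5 the median number of marked members per sample fell from 112.5 to 61.5 and the number marked in all 6 to 20 (13.4%, against 5.75% of all genes), and where peaks had to cover 50% of the window they were 63 and 15 (10.1%, against 1.12%). A peak within 1 kb of a start site was present in all 6 samples for 82 members (55.0%) and for 11.4% of all genes. Another 43 members were marked in 1 to 5 samples and 23 (15.4%) in none, against 72.8% of all genes in none. Both kinds of gene took part, with 40 of 55 KRT and 43 of 94 KRTAP genes marked in all 6 samples. Most KRTAP windows are shorter than the KRT windows, with 2001 bp at KRTAP5-1 and 6956 bp at KRT5 as examples. An overlap of 1 bp is met more readily in a longer window. The part of window length in the difference between KRT and KRTAP genes was not tested.

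**Figure D1:**
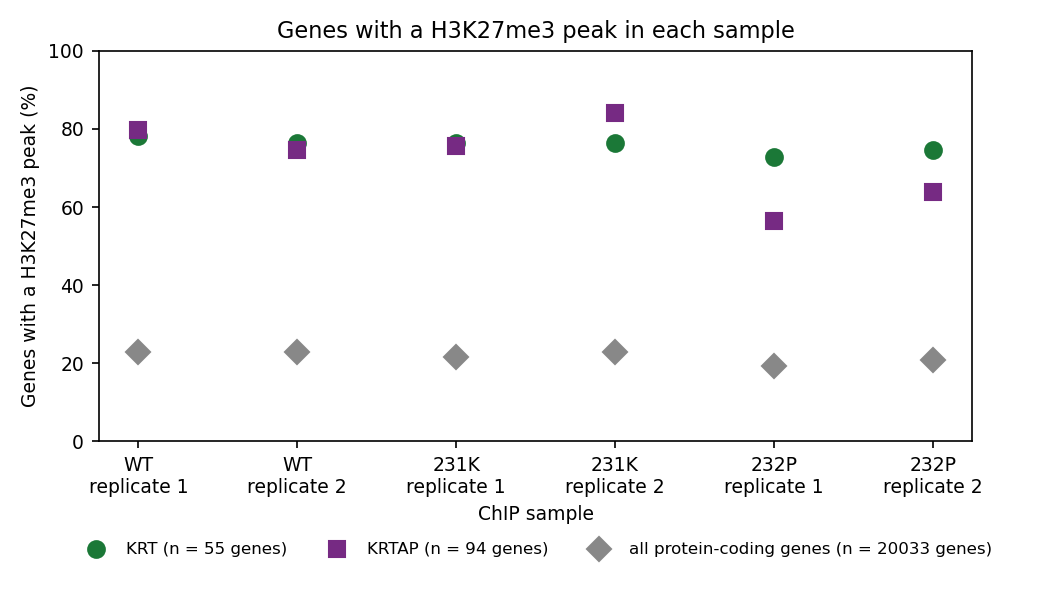
Percentage of genes with a H3K27me3 peak (y axis) in each ChIP sample (x axis), for KRT genes, KRTAP genes and all protein-coding genes; each point is 1 sample. KRT genes stay between 72.7% and 78.2% in the 6 samples, KRTAP genes fall to 56.4% in 232P replicate 1, and all genes lie between 19.3% and 23.0%. Most KRTAP windows are shorter than the KRT windows.

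The promoters of these genes share features that the choice of members did not use. RefSeq start-site windows (GRCh38.p14, 250 bases before to 50 after the start) were matched by symbol for 114 of the 149 members and for 15345 protein-coding genes. The dinucleotide CG occurred a median of 2 times per window in the family (range 0 to 13) and 22 times over all genes. The letters TATAAA, searched on both strands, were present in 84 of the 114 family windows (73.7%) and in 9.63% of all windows. Members marked in all 6 samples had a median of 2 CG, members marked in some samples 2, and the 5 matched members marked in none 3, and the ranges overlapped. The promoters of 7 genes are shown, each as the 250 bases before the start site, 5′ to 3′ on the gene's own strand, with CG and TATAAA in capitals. KRT74 and KRT75 are among the most fully covered type II genes, KRT8 is a simple epithelial keratin whose RefSeq start lies inside its longer GENCODE gene body, KRT10 and KRTAP19-7 were not marked in one of the Tau-KO lines, and KRT38 and KRT32 are the neighbours between which the mark ends on chromosome 17.

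KRT74 (chr12:52573844-52574093, minus strand): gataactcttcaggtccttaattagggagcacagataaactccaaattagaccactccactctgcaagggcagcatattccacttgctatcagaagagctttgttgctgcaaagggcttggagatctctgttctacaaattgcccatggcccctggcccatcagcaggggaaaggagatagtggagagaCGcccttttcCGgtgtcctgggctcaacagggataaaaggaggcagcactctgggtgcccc
KRT75 (chr12:52434372-52434621, minus strand): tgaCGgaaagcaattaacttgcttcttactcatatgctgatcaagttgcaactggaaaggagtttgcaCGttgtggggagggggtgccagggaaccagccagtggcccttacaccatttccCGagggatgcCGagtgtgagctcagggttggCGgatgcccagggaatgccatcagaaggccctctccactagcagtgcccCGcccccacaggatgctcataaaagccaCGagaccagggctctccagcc
KRT8 (chr12:52926470-52926719, minus strand): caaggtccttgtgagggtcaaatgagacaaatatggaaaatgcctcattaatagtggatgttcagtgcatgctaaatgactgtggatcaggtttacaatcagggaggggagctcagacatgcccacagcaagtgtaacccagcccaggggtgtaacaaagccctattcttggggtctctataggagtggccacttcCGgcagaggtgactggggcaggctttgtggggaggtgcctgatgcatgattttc
KRT10 (chr17:40822615-40822864, minus strand): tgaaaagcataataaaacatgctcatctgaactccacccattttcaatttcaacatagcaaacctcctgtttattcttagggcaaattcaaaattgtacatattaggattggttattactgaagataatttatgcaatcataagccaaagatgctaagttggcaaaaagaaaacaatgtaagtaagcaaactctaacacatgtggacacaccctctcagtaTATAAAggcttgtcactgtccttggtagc
KRT38 (chr17:41440984-41441233, minus strand): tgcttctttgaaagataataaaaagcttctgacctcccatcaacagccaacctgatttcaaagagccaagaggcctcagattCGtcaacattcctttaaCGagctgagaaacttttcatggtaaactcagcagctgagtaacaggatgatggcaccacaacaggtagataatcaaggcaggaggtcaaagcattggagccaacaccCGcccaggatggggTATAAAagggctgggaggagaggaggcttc
KRT32 (chr17:41467387-41467636, minus strand): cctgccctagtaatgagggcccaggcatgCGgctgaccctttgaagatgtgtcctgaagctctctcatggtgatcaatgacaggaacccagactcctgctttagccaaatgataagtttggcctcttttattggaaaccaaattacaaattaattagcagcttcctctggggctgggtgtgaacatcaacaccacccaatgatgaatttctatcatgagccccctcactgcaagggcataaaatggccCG
KRTAP19-7 (chr21:30561315-30561564, minus strand): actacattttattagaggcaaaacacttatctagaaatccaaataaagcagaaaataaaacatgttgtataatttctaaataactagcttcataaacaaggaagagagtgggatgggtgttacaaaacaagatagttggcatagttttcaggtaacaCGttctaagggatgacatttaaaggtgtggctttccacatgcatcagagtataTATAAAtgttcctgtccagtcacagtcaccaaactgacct

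KRT38 and KRT32, on either side of the end of the domain, hold 3 and 2 CG in the stretch shown; TATAAA is present at KRT38 and these letters are not in the KRT32 stretch. A match of letters is a description of the sequence and not a bound site.

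The genes lie in 6 groups, split where neighbouring members are over 1 Mb apart, and the groups differed. On chromosome 12, where the type II keratins lie with KRT18, 23 of 27 genes were marked in all 6 samples. On chromosome 17, where type I keratins surround 34 KRTAP genes, 42 of 62 were marked in all 6. On chromosome 21 the first KRTAP group (33 genes) had 9 such genes and the second (16 genes, the KRTAP10 and KRTAP12 genes within TSPEAR) had 9. On chromosome 11, none of the 11 KRTAP5 genes was marked in any sample. Of the windows of the 11 KRTAP5 genes a median of 30.0% of 32-base words occurs more than once in hg38, against 8.88% over the family, and the part of this in the absence of peaks was not tested. KRTAP10 genes had a median of 25.9% repeated words and KRTAP9 genes 27.2%, and 5 of 12 and 5 of 8 of these were marked in all 6 samples.

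**Figure D2:**
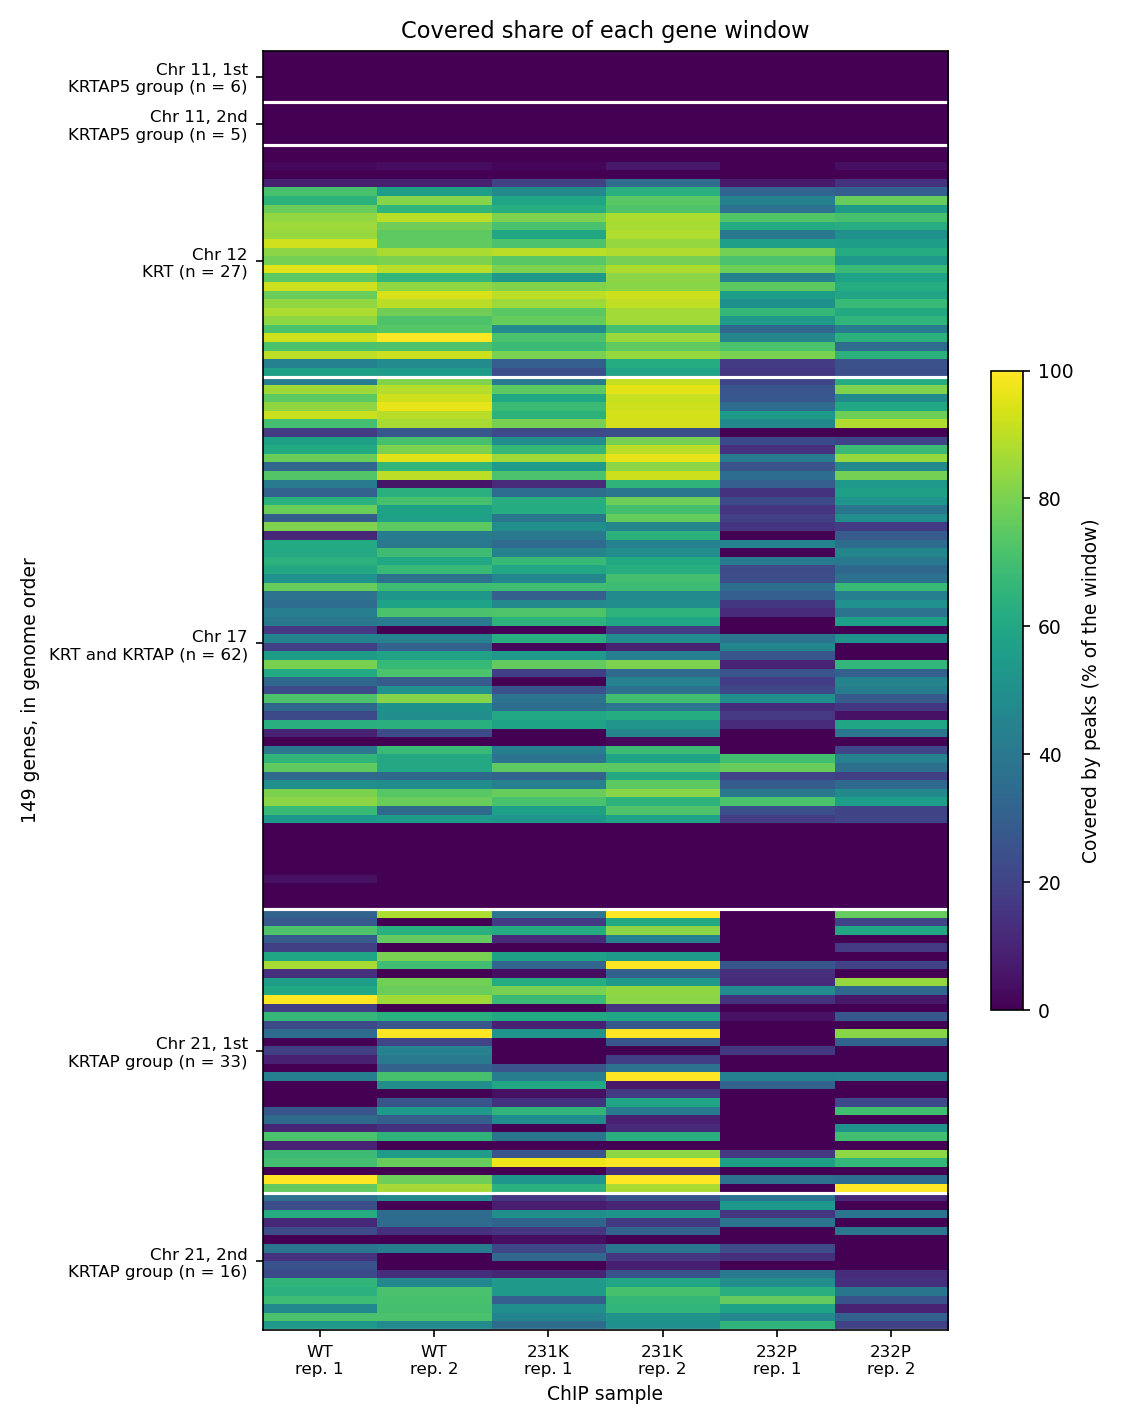
Covered share (colour, percent of the gene window inside peaks) of the 149 genes (rows, in genome order, white lines between the 6 groups) in the 6 ChIP samples (columns). The 11 KRTAP5 genes on chromosome 11 are at 0 throughout, and the 23 chromosome 12 genes from KRT83 to KRT18 are marked in every sample. On chromosome 17, 9 of the last 10 genes are at 0, and the first chromosome 21 group is darkest in 232P replicate 1.

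The chromosome 12 group (chr12:52168996-52952906, hg38) held a long run of marked genes. From KRT85 to KRT78, 489.1 kb with 20 genes, every gene was marked in every sample. Peaks covered 74.1% and 75.0% of this stretch in WT, 66.8% and 78.5% in 231K, and 44.8% and 53.7% in 232P. Here the 232P samples lay below all other samples and the WT and 231K samples overlapped. Towards the start of the group, the 122.5 kb from KRT80 to KRT81 were covered at 0 to 1.80%, and KRT80, KRT7 and KRT81 were unmarked throughout. The mark did not end at KRT18: the next peak began 0.442 to 4.33 kb after the last peak at KRT18, and the 10 kb bin centred 805 kb from the start of KRT80 was covered at 22.2% to 80.6%. EIF4B and TNS2, the next genes beyond KRT18, had no peak in any sample.

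**Figure D3:**
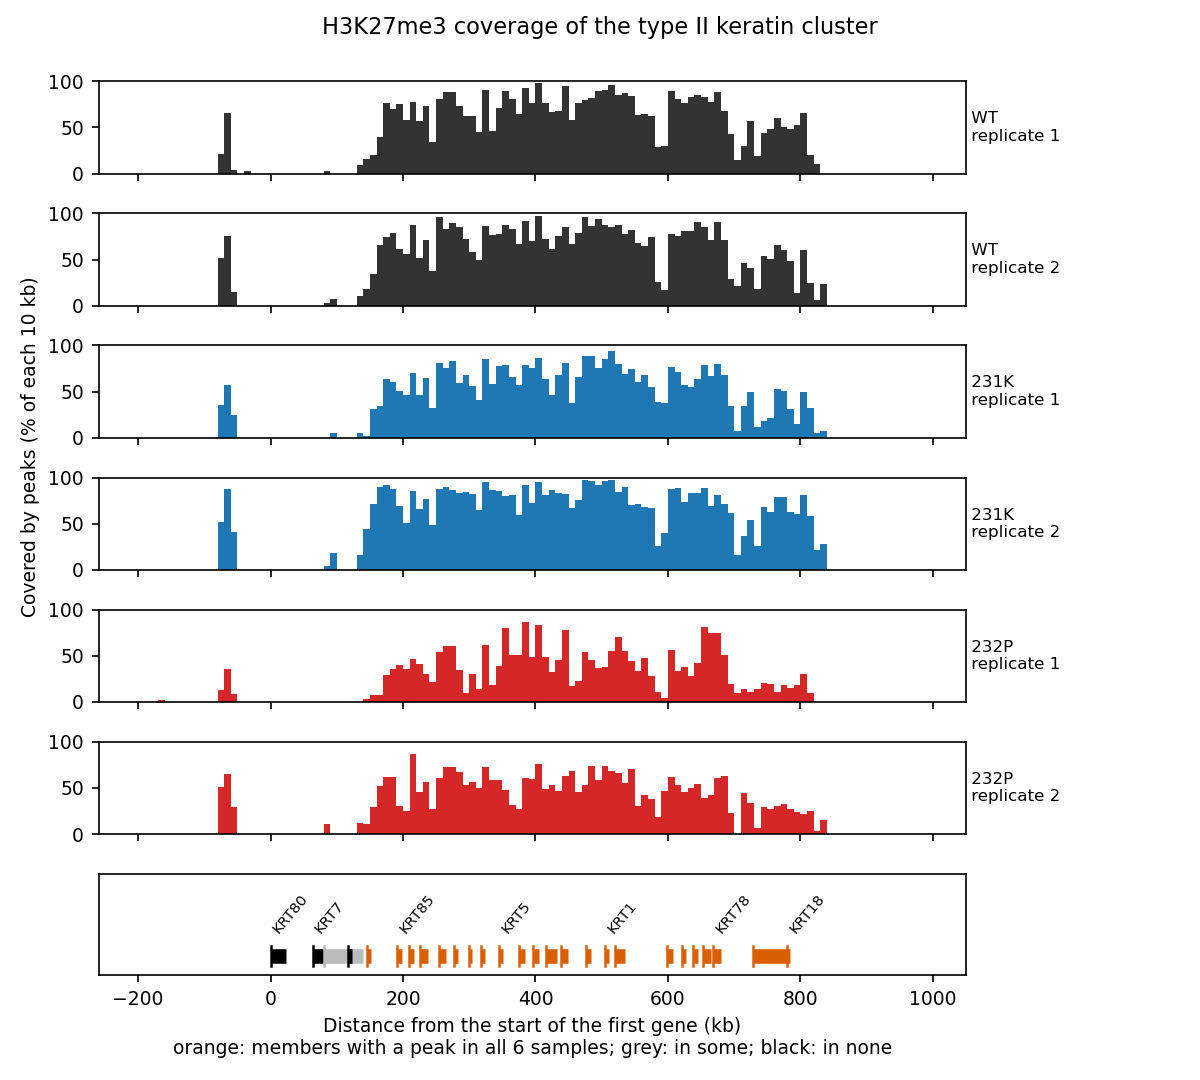
Percentage of each 10 kb bin covered by H3K27me3 peaks (y axis) along the chromosome 12 group, by distance from the start of its first gene, KRT80 (x axis, kb), 1 panel per sample; the lowest panel marks the 27 genes. The first 122.5 kb are nearly empty (0 to 1.80% covered), the stretch from KRT85 to KRT78 is covered at 44.8% to 78.5%, and coverage goes on past KRT8 and KRT18, the last genes, reaching 0 in all 6 samples in the bin centred at 845 kb.

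KRT74, a type II keratin of the inner root sheath, had the highest mean covered share of the group over the 6 samples, with 95.1% and 89.5% in WT, 80.3% and 87.6% in 231K, and 78.1% and 68.3% in 232P. KRT78 was covered at 90.0% and 92.6% in WT, 79.9% and 84.4% in 231K, and 79.7% and 64.2% in 232P. KRT5, the type II keratin of basal keratinocytes (chr12:52514575-52520530), was covered at 82.5% and 87.3% in WT, 89.5% and 88.0% in 231K, and 79.2% and 61.7% in 232P. In KRT74 and KRT78 both 231K samples are below both WT samples and both 232P samples are below all others, with replicate 1 of 232P close to replicate 1 of 231K.

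The strongest peaks of the family, ranked by the lowest of the 6 per-sample fold enrichments, also lay mainly in this stretch. Fold enrichment is the pile-up of reads at the summit over the local background, as the peak caller gives it. KRT75, a hair follicle companion layer keratin, led with 7.37 and 7.15 in WT, 6.97 and 9.59 in 231K, and 8.45 and 7.06 in 232P, with -log10 q between 8.27 and 15.6. KRT78 followed with 8.74 and 8.41 in WT, 7.79 and 10.0 in 231K, and 6.71 and 7.95 in 232P. KRT77 had 6.35 and 6.73 in WT, 7.38 and 8.34 in 231K, and 8.45 and 6.62 in 232P. For KRT75 both lines overlapped WT, and for KRT77 both 231K samples were above both WT samples and 1 of the 232P samples lay between them. KRT71, KRT2, KRT23, KRT27, KRT72, KRT76 and one of KRT40, KRT6B and KRT8, which tie at 5.74, complete the first 10.

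The wound and appendage keratins split by chromosome. KRT6A, KRT6B and KRT6C, induced in wounded and hyperproliferating epidermis, and KRT75 were marked in all 6 samples. KRT6A was covered at 92.9% and 75.8% in WT, 71.8% and 84.1% in 231K, and 56.5% and 55.7% in 232P. KRT6B ranged from 61.5% to 86.9% and KRT6C from 40.1% to 88.2% over the 6 samples. KRT16 and KRT17, the type I keratins of the same setting, had no peak in any sample. Of the 32-base words of KRT6A, 29.6% are repeated in the genome, and of those of KRT16 and KRT17, 32.6% and 33.5%.

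The same split held for the main basal pair. KRT5 was marked throughout, as above, whereas KRT14, its type I partner (chr17:41582279-41586895), had no peak in any of the 6 samples. Of the 32-base words of KRT5, 2.20% are repeated in the genome, and of those of KRT14, 27.5%; the part of this in the absence of peaks at KRT14 was not tested.

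The simple epithelial keratins were also divided. KRT8 and KRT18, the pair of simple epithelia, were marked in all 6 samples, KRT7 and KRT19 in none, and KRT20, the intestinal type I keratin, in all 6. With peaks of -log10 q of at least 5 KRT8 stayed at 6 samples and KRT18 had 3, and where peaks had to cover 50% of the window KRT8 had 1 and KRT18 3. KRT18 (chr12:52948871-52952906) was covered at 57.0% and 54.7% in WT, 24.1% and 58.4% in 231K, and 15.7% and 24.5% in 232P. KRT8, whose window of 53768 bp includes long annotated transcripts, was covered at 43.8% and 48.3% in WT, 29.9% and 61.8% in 231K, and 17.7% and 24.8% in 232P. A peak near any annotated start or in the body marks KRT8, and its starts were not told apart. Coverage inside its window was uneven. No sample had a peak between positions 52903344 and 52906016, and the 10 kb bin centred 735 kb from the start of KRT80 was covered at 6.01% to 26.1%. Both 232P samples were below both WT samples at KRT8 and KRT18, while the 231K samples lay on both sides of the WT values. The windows of KRT8 and KRT18 overlap and some peaks count for both, so their values are not independent. The highest fold enrichment of KRT18 peaks per sample was between 3.69 and 5.89, where the median peak of each list had 3.38 to 3.97. KRT20 was covered at 61.2% and 80.2% in WT, 66.5% and 89.8% in 231K, and 14.3% and 68.1% in 232P; 232P replicate 1 was the lowest sample and 232P replicate 2 lay between the WT samples, while each was below, and each 231K sample above, the WT sample of the same number.

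Chromosome 17 (chr17:40654665-41624842) held an abrupt end of the mark inside the group. From KRT222 to KRT38, 786.3 kb with 52 genes, peaks covered 53.7% and 65.5% of the sequence in WT, 54.5% and 71.5% in 231K, and 21.4% and 49.9% in 232P. Against the WT sample of the same number, both 231K samples were higher and both 232P samples lower. From KRT32 to KRT17, the next 165.3 kb with 10 genes, they covered 0.871% and 0% in WT, 0.238% and 0.246% in 231K, and 0% and 0.428% in 232P. In these last 10 genes (KRT32, KRT35, KRT36, KRT13, KRT15, KRT19, KRT9, KRT14, KRT16 and KRT17) the only mark was a single peak at KRT9 in WT replicate 1. The last peak of the domain ended between KRT38 and KRT32, 806 to 3790 bp before the annotated KRT32 gene and 14740 to 17724 bp past KRT38. The 6 ends, from WT and Tau-KO cells, lay within 3 kb of each other. In KRT222 to KRT38, 14.1% of 32-base words are repeated in hg38 and in KRT32 to KRT17 11.4%. Over gene windows, the 23 members marked in no sample, of which 11 are KRTAP5 genes, had a median of 26.7% repeated words, the 83 marked in all samples 8.81%, and the part of this in the absence of peaks was not tested. Beyond KRT17, EIF1, a translation initiation factor gene, and GAST had no peak; SMARCE1 before KRT222 had none either.

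**Figure D4:**
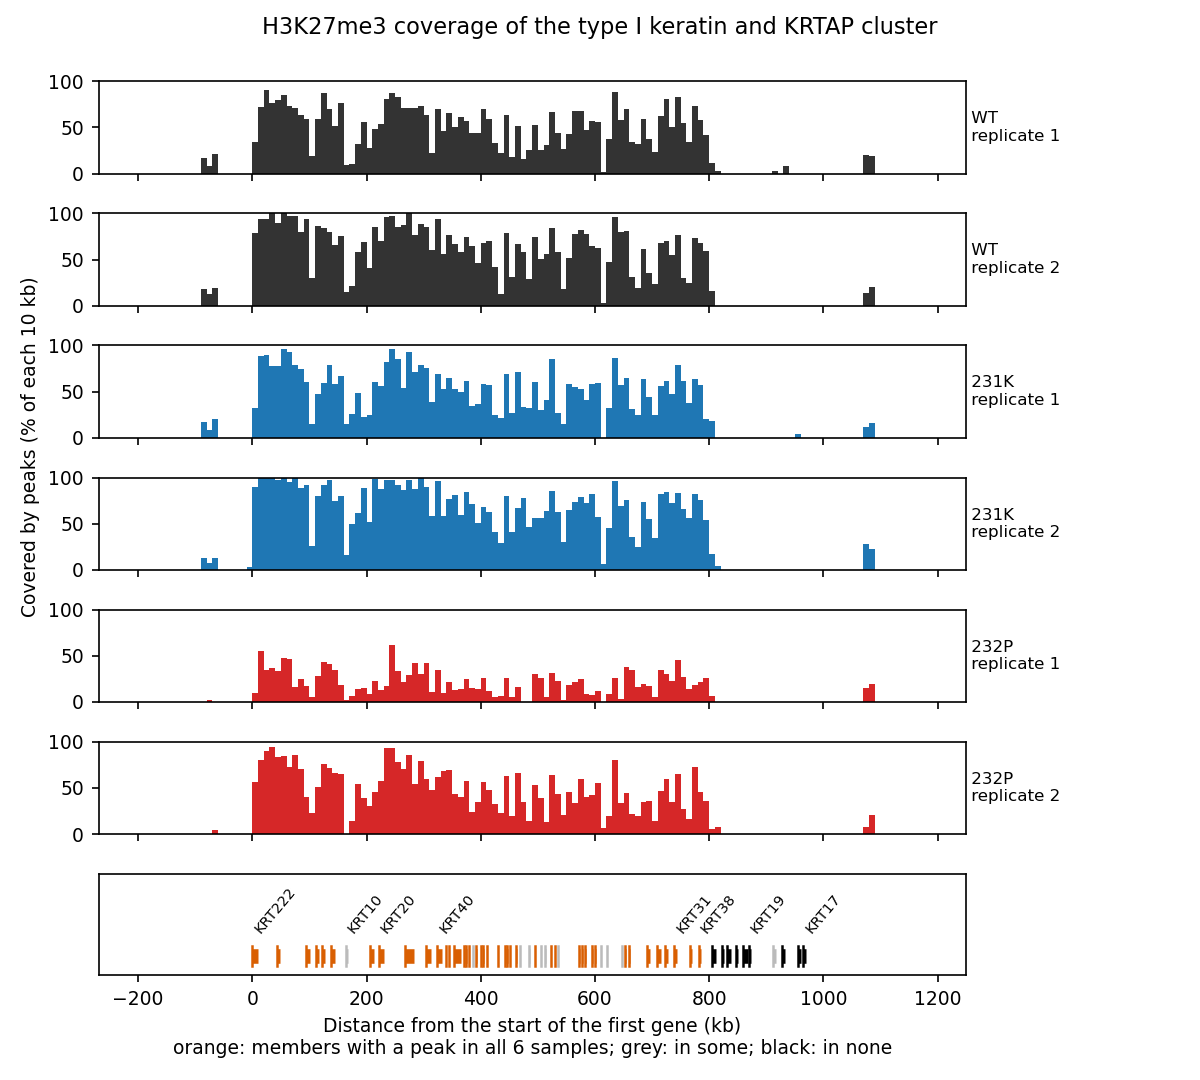
Percentage of each 10 kb bin covered by H3K27me3 peaks (y axis) along the chromosome 17 group, by distance from the start of its first gene, KRT222 (x axis, kb), 1 panel per sample; the lowest panel marks the 62 genes by the number of samples with a peak. Coverage is 21.4% to 71.5% up to KRT38 and at most 0.871% from KRT32 to KRT17. In the 6 samples the last peak of the domain ends 806 to 3790 bp before KRT32.

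The 3 genes of this group with the highest mean covered share were KRT23, KRT27 and KRT28. KRT23 was covered at 77.5% and 95.4% in WT, 85.9% and 96.7% in 231K, and 41.8% and 84.5% in 232P. KRT27, a type I keratin of the inner root sheath, was covered at 92.0% and 89.3% in WT, 64.6% and 93.4% in 231K, and 54.4% and 77.8% in 232P. KRT28 was covered at 70.2% and 86.8% in WT, 79.5% and 93.0% in 231K, and 46.2% and 88.0% in 232P. In each of these genes 232P replicate 1 is the lowest sample, whereas 232P replicate 2 lies between the WT samples at KRT23 and between the 231K samples at KRT27 and KRT28. Against the WT sample of the same number, both 232P samples were lower at KRT23 and KRT27, and at KRT28 replicate 1 was lower and replicate 2 higher; both 231K samples were higher at KRT23 and KRT28. The widest peak over the group, 44739 bp in 231K replicate 2 (chr17:40658656-40703394), touched KRT222 and KRT24. The KRTAP genes of chromosome 17 were marked nearly as a block, with 33 and 32 of 34 in WT, 31 and 34 in 231K, and 28 and 30 in 232P.

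On chromosome 21, where all members are KRTAP genes with short windows, the number of marked genes varied more from sample to sample. The part of window length in this was not tested. In the first group (chr21:30281309-31038476) 27 and 26 of 33 genes were marked in WT, 25 and 30 in 231K, and 12 and 20 in 232P. KRTAP8-1, a glycine-tyrosine-rich hair protein gene, was covered at 70.0% and 76.6% in WT, 97.7% and 100% in 231K, and 57.0% and 66.4% in 232P. KRTAP19-8 was covered at 75.8% and 86.5% in WT, 63.8% and 87.4% in 231K, and 0% and 100% in 232P, and KRTAP11-1 at 100% and 77.9%, 52.4% and 100%, and 37.9% and 36.1%. KRTAP19-8 shows the spread within 1 line, between lists that also differ in peak width: its 232P samples were at the lowest and the highest value of all 6. The 8 KRTAP19 genes had a median covered share of 28.7% and 54.0% in WT, 30.5% and 43.4% in 231K, and 0% and 17.1% in 232P.

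In the second group (chr21:44538981-44698044) KRTAP12-4 was covered at 64.0% and 71.2% in WT, 53.7% and 70.7% in 231K, and 63.0% and 38.9% in 232P. KRTAP12-3 and KRTAP12-1 followed with mean covered shares of 56.2% and 52.8% over the 6 samples. All 4 KRTAP12 genes and 5 of 12 KRTAP10 genes were marked in all 6 samples. Here 232P replicate 2, with 10 marked genes, was lower than 232P replicate 1, with 13, whereas on chromosomes 12 and 17 and in the first chromosome 21 group replicate 1 was the lower of this pair.

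Grouped by where the keratins are made, 8 of 8 inner root sheath keratins were marked in all 6 samples, with a median covered share of 81.2% and 88.1% in WT, 71.1% and 89.6% in 231K, and 50.3% and 60.7% in 232P. Of 17 hair shaft keratins 12 were marked in all 6 samples and 4 in none; these 4 were KRT81 and the chromosome 17 genes KRT32, KRT35 and KRT36. Of 18 basal and stratified keratins 12 were marked in all samples and 4 in none. All-gene median covered share was 0 in every sample.

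Genes of other epithelial functions were marked to differing degrees, beside 16.5% of all genes marked in all 6 samples. Of 14 desmosome genes, which join epithelial cells, 9 were marked in all 6 samples, among them DSP, DSG3, DSG4 and PERP (mean covered shares of 75.4%, 69.2%, 68.0% and 64.6%). Of 25 cornified envelope genes, 18 were marked in all 6, with KRTDAP, TCHHL1, LORICRIN and LCE5A at 79.2%, 77.9%, 73.2% and 72.9%. Of 12 hair follicle regulators 8 were, led by HOXC13 (74.6%), DLX3 (69.9%), LHX2 (50.4%) and SHH (44.7%). Of 15 epidermal lineage regulators, 4 were: TFAP2C (68.0%), TFAP2A (55.3%), KLF4 (41.6%) and TP63 (39.5%). This is 26.7% of that list, whose median covered share, by the mean over the 6 samples, was 0.172%.

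Of all protein-coding genes 72.8% had no peak in any sample, and of 15 other intermediate filament genes 14 had none, among them VIM, NES, PRPH, INA, NEFL, NEFM and NEFH, the vimentin, nestin and neuronal filament genes. BFSP1, a lens filament gene, was the exception, with a mean covered share of 6.61%. Of 10 neuroblastoma identity genes, which are active in SH-SY5Y cells, 9 had no peak in any sample. MAPT itself had no peak in any sample, so that the mark does not check the knock-out.

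The comparison of each Tau-KO line with WT asked whether the mark was lost from keratin family genes. Lost was taken as a peak in both WT samples and in neither sample of the line, and gained as the opposite. For these counts of peaks no test was run on single genes: with 2 samples against 2, the smallest p that a two-sided exact permutation test can give is 0.333.

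In 231K, 1 of 108 genes marked in both WT samples was lost, against 1.88% of all such genes. This gene was KRTAP19-7, covered at 18.8% and 44.4% in WT, 0% and 0% in 231K, and 16.3% and 0% in 232P. Its WT peaks reached 2.58-fold and 4.62-fold, and with only peaks of a q-value of 0.05 or less it no longer counted as marked in both WT samples, so that it left the count while still without a peak in 231K. The count became 4 of 118 without WT replicate 2 (3.39%, against 6.26% of all such genes) and 5 of 108 without 231K replicate 2 (4.63%, against 6.1%). Where peaks had to cover 50% of the window it was 3 of 62 (4.84%, against 1.78%), and KRTAP19-7 was not among them. One of 27 genes unmarked in both WT samples was gained, KRTAP6-1 (4.60% and 17.0% in 231K, 0% in the other 4 samples), against 0.246% of all such genes.

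In 232P, 6 of 108 genes were lost, against 5% of all such genes, and none was gained, against 0.113%. Of these 6, 5 lie in the first chromosome 21 group. KRT10, the type I keratin of differentiating epidermis (chr17:40818117-40822614), was covered at 17.7% and 27.6% in WT, 22.0% and 24.0% in 231K, and 0% in both 232P samples. Its peaks in WT were of 3.80-fold and 3.95-fold. KRTAP13-2 was covered at 58.7% and 79.9% in WT, 56.9% and 54.0% in 231K, and 0% in both 232P samples. KRTAP27-1, KRTAP19-4, KRTAP22-2 and KRTAP20-2 were covered at 9.30% to 76.2% in WT. None of the 4 had a peak in either 232P sample. Of 42 KRT genes marked in both WT samples with all peaks used, KRT10 was the only one lost in either line. Under other settings further KRT genes were lost in 232P. These were KRT12 and KRT37 with peaks of -log10 q of at least 5. KRT85, KRT3, KRT18, KRT25 and KRT12 were among those lost where peaks had to cover 50% of the window. The count of 6 depends on the samples and peaks used: it became 11 of 118 without WT replicate 2 (9.32%, against 10.1% of all such genes), 11 of 108 without 232P replicate 1 (10.2%, against 9.5%) and 19 of 108 without 232P replicate 2 (17.6%, against 15.4%). With equal numbers of peaks 3 of 95 were lost (3.16%, against 3.23%), 2 of them among the 6. With peaks of -log10 q of at least 5 there were 10 of 58 (17.2%, against 13.9%), none of them among the 6. Where peaks had to cover 50% of the window there were 22 of 62 (35.5%, against 20.2%), 1 of them among the 6. In 232P replicate 1 and replicate 2, the lists in which these marks are missing, the covered sequence was 70.3 and 211.7 Mb against 213.6 and 282.6 Mb in WT, and the part of this in the losses was not tested.

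The covered share was compared by limma over 4808 genes with a peak in at least 2 samples, 121 of them family members, with Benjamini-Hochberg adjustment over all 4808. No gene passed an adjusted p of 0.05 in 231K against WT (0% of genes), in 232P against WT (0%) or in 232P against 231K (0%). At an unadjusted p under 0.05 there were 158, 483 and 336 genes (all genes tested). The 121 members are those that passed the filter of a peak in at least 2 samples, which a gene can pass through the group where it is high, as KRTAP6-1 did through 231K.

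KRTAP19-1, chosen after its values were seen, had the lowest adjusted p of the family (0.289 by limma, 232P against WT). It was covered at 100% and 85.7% in WT, 68.0% and 82.5% in 231K, and 14.8% and 6.65% in 232P. Its difference in 232P was -82.1 ± 12.7 percentage points (SE, n = 2 per group), with both 232P samples below both WT samples. KRT10 had a difference of -22.6 ± 5.87 points in 232P (limma, adjusted p = 0.458) and of 0.346 ± 5.87 points in 231K (limma, adjusted p = 1).

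On the unscaled covered share the family as a whole was lower in 232P, as were most genes. Over the 121 members the median difference was -20.0 points in 232P, with 109 (90.1%) below WT. Over all 4808 genes it was -10.2 points, with 89.4% below WT. These differences start from unlike levels. Over the 149 family genes the mean covered share was 42.5% and 46.1% in WT and 22.9% and 31.0% in 232P. Over all 20033 protein-coding genes it was 7.0% and 8.3% in WT and 3.2% and 6.1% in 232P. Without 232P replicate 1 the median was -18.8 points over the members and -3.54 over all genes, and without WT replicate 2 it was -18.7 and -6.64. In 231K the median over the members was -1.77 points, with 54.5% of members and 54.9% of all genes below WT. Its direction was not stable, with 3.29 points without 231K replicate 1, -8.52 without 231K replicate 2 and -0.625 without WT replicate 2, 1.82 with peaks of -log10 q of at least 5 and 0.113 when scaled. In the direct comparison of 232P with 231K the median was -21.5 points over the members and -8.51 over all genes. It became -13.3 and -3.81 without 231K replicate 2, -17.4 and -2.89 without 232P replicate 1, and -27.4 and -13.7 without 231K replicate 1. Both 232P samples were below both WT samples for 65 of the 121 members (53.7%), against 46.3% of all genes, and both were above for 0 members, against 0.874%. Both 231K samples were below both WT samples for 22 members (18.2%), against 14.2%, and above for 9 (7.44%), against 5.35%. For 4 members, against 1.85% of all genes, both 231K samples were above and both 232P samples below both WT samples. The comparisons of the lines with WT share the WT samples. When each sample was scaled to the same mean covered share, the all-gene median in 232P moved from -10.2 to -0.564 points and that of the members from -20.0 to 2.51, with 44.6% of members below WT. This scaling applies 1 factor per sample to a share that cannot pass 100%, and it takes highly covered genes of 232P replicate 1 above that bound, so the scaled median gives no direction for the family.

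Covered length was also compared within replicate numbers. On chromosome 12, 231K had 0.886 and 1.09 times the covered length of the same-numbered WT sample, and 232P had 0.572 and 0.713 times. On chromosome 17 the ratios were 1.01 and 1.09 in 231K, and 0.400 and 0.762 in 232P. In the first chromosome 21 group they were 0.924 and 1.04, and 0.247 and 0.730. In the second they were 0.824 and 1.03, and 0.678 and 0.599. Over all peaks of the genome they were 0.921 and 1.03 in 231K, and 0.329 and 0.749 in 232P. In 232P replicate 1 the chromosome 12, chromosome 17 and second chromosome 21 groups lay above the genome ratio and the first chromosome 21 group below it, whereas in 232P replicate 2 the 4 groups lay between 0.599 and 0.762, around the genome ratio of 0.749. The order of the groups was not the same in the replicates.

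**Figure D5:**
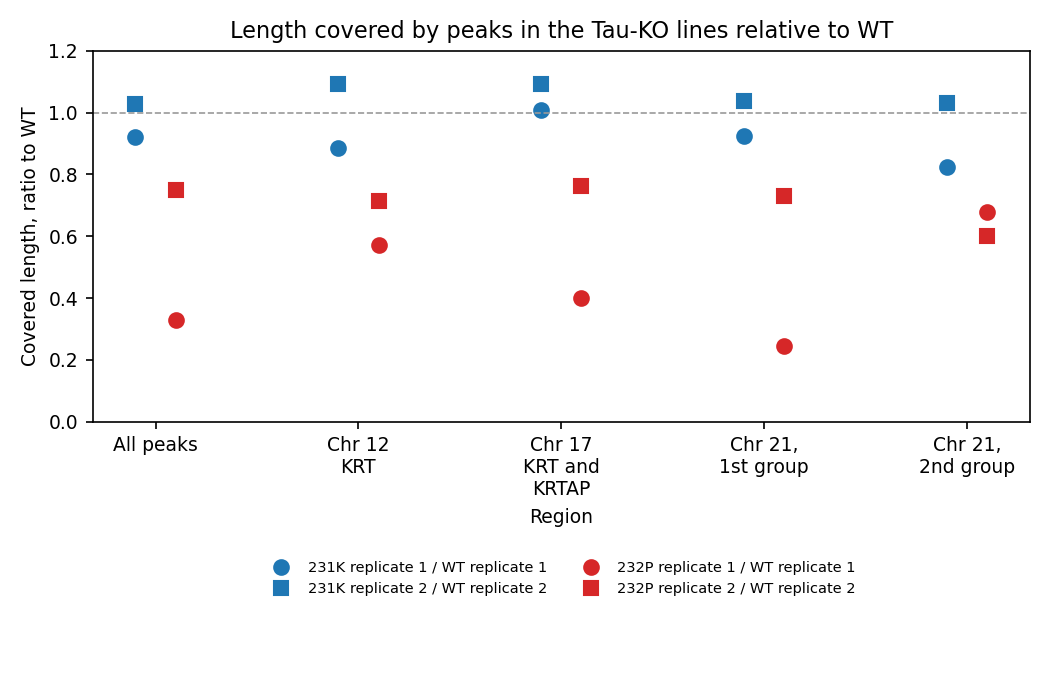
Length covered by peaks in each Tau-KO sample divided by that in the WT sample of the same replicate number (y axis, ratio) for all peaks and for 4 of the gene groups (x axis); each point is 1 pair of samples and the dashed line marks equal length. The 231K points lie between 0.824 and 1.09 and the 232P points between 0.247 and 0.762.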

How the data were processed

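H3K27me3 ChIP-seq peak lists of 6 samples were used, 2 each of WT, 231K and 232P. According to the methods of the study and the labels, the authors trimmed adapters with Trimmomatic, removed short and low-quality reads, aligned single-end reads to hg38 with BWA and called peaks with MACS version 2; the cutoffs of these steps are not given in the sources used here. The methods describe broad peak calling, whereas the deposited files are narrow-peak lists, so a broad domain appears as several neighbouring peaks. The deposited lists also hold more peaks per sample than the methods state, and were used whole. The deposited lists give, per peak, the fold enrichment over local background (a ratio) and a p-value and a q-value, each as its -log10, as the authors' peak caller wrote them. They hold no read counts per gene.

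Genes were taken from GENCODE release 44 (hg38). The members and gene lists were chosen with earlier results of these data known. The covered share of each gene window was computed in Python 3.11.15 and compared with limma 3.58.1 (R 4.3.3; trend, robust, no block) over genes with a peak in at least 2 samples, with Benjamini-Hochberg adjustment. The limma step was tested on simulated data: in the 231K design over 4808 genes, shifts of 15, 30 and 45 percentage points in 200 genes were recovered in 0%, 3.5% and 9.5% of cases, so an absence of calls says little about single genes. Relative depth was taken from the lowest background of each list, recovered from the fold enrichment and p-value, divided by the smallest peak width. Genes were named by fixed rules: the simple epithelial and the wound and appendage keratins, KRT5 and KRT14, the 3 members with the highest mean covered share per genomic group, the first 10 members by lowest fold enrichment, lost and gained members, and up to 4 examples of each other list. Alternatives tried were stricter q-values, equal numbers of peaks, start sites only, coverage of at least 50%, scaling, a log2(percentage + 1) scale, a replicate block, other filters and leaving out each sample. The values of 1 gene of the neuroblastoma identity list are not reported here.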

Additional observations from a re-analysis of the deposited data

Results flagged for a closer look

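At 4 members both 231K samples were above both WT samples in covered share and both 232P samples below them, which held for 1.85% of all genes tested. KRT5 had 82.5% and 87.3% in WT, 89.5% and 88.0% in 231K, and 79.2% and 61.7% in 232P, with the 231K mean 18.3 points above the 232P mean (limma, 232P against 231K, adjusted p = 0.566). KRTAP9-4 had 22.6% and 49.3%, 60.1% and 61.8%, and 16.7% and 5.05%, a difference of 50.1 points (limma, adjusted p = 0.566). KRTAP15-1 had 60.0% and 77.3%, 79.3% and 83.6%, and 48.3% and 33.5%, a difference of 40.5 points (limma, adjusted p = 0.566). KRTAP8-1 had 70.0% and 76.6%, 97.7% and 100%, and 57.0% and 66.4%, a difference of 37.1 points (limma, adjusted p = 0.566). None of these differences between the lines passed the adjusted threshold. 232P replicates 1 and 2 covered 70.3 and 211.7 Mb in all, against 196.6 and 290.2 Mb in 231K; the part of this in the differences was not tested.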

How the results depend on the processing

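The median number of marked members per sample was 112.5 and the number marked in all samples 83; with peaks of -log10 q of at least 5 these became 61.5 and 20, and with peaks over at least 50% of the window 63 and 15. With -log10 q of at least 5, 13.4% of members and 5.75% of all genes were marked in all samples, and with the 50% rule 10.1% and 1.12%. Marks lost in 231K numbered 1; this became 0 at a q-value of 0.05 or less (1.95% of all genes marked in both WT samples under that setting), 0 with equal numbers of peaks (1.93%) and 3 of 62 with the 50% rule (1.78%), and 0 of those 3 was KRTAP19-7. At -log10 q of at least 5 it was 1 of 58 (2.18%), KRTAP2-1. Leaving out each replicate gave 1 to 5. Marks lost in 232P numbered 6; this became 10 of 58 at -log10 q of at least 5 (0 of the 6 among them; 13.9% of all such genes), 3 of 95 with equal numbers of peaks (2 of the 6; 3.23%) and 22 of 62, or 35.5%, with the 50% rule (1 of the 6; 20.2%). Leaving out each replicate gave 7 to 19, with 11 without WT replicate 2, 11 without 232P replicate 1 and 19 without 232P replicate 2. In the scaled fit the median difference of members was 2.51 points in 232P against WT and 0.045 in 232P against 231K, and at -log10 q of at least 5 the latter was -30.6. No gene passed the limma threshold under any alternative run, in any of the 3 comparisons. With the replicate block there were likewise 0 calls, with 243, 1481 and 1303 genes at an unadjusted p under 0.05; same-numbered samples deviated together between groups (r = 0.364, 0.484 and 0.461 across 4808 genes, which are not independent), but the labels give no shared batch. The fit without any filter could not be made; genes with a peak in at least 1 sample were used in its place, chosen after seeing the data, and the log2 fit gave no median in points.

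Of 33 named members, the number of samples with a mark moved for 20 at -log10 q of at least 5 and for 18 with the 50% rule. The peak lists hold no values for regions that did not pass the peak caller's threshold. Estimated relative depth was 68.1% and 56.9% in 232P, 100% and 66.6% in WT and 94.8% and 68.7% in 231K, and 232P replicate 1 covered 70.3 Mb. What lowered the coverage of 232P replicate 1 was not tested.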

Other observations

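Coverage was not limited to the keratin groups. In the 10 kb bins centred 195 to 5 kb before the first chromosome 21 group it was 20.2% to 64.4% in WT replicate 1 and 28.3% to 79.0% in WT replicate 2. In 232P replicate 1 these bins were at 1.81% to 25.2%. The group itself was covered at 36.9% and 48.3% in WT. TSPEAR, which holds the second group, was covered at 45.2% and 46.0% in WT, 35.5% and 47.5% in 231K, and 32.3% and 26.4% in 232P. Neighbouring genes elsewhere were marked at a few places. CLDN8 and CLDN17, claudin genes of epithelial tight junctions just before the first chromosome 21 group, had peaks in all 6 samples; CLDN8 was covered at 87.9% and 96.2% in WT, 72.9% and 100% in 231K, and 14.3% and 71.2% in 232P. SMIM41 before KRT80 was covered at 28.9% and 40.4% in WT, 30.1% and 44.8% in 231K, and 16.1% and 37.0% in 232P, on the far side of the unmarked stretch that holds KRT80 and KRT7. HAP1, beyond KRT17, was covered at 5.36% to 17.0% over the 6 samples, while EIF1 and GAST, which lie between KRT17 and HAP1, had no peak. Beside the second chromosome 21 group, TRPM2 was covered at 11.6% to 26.4% and ITGB2 at 6.80% to 13.5% over the 6 samples.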
